A study of Mus musculus with 92 samples.

Results

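The 41 genes described here encode the core machinery of DNA replication. They were chosen by symbol: Mcm2 to Mcm7, Cdc6, Cdt1, Orc1, Orc2 and Orc6 (origin licensing), Mcm10, Cdc45 and Gins1 to Gins4 (helicase activation), Pcna and Rfc1 to Rfc5 (sliding clamp and its loader), Pola1, Pola2, Prim1, Prim2, Pold1, Pold2, Pold3, Pole and Pole2 (polymerases and primase), Rrm1, Rrm2 and Tyms (deoxynucleotide synthesis), Lig1 and Fen1 (Okazaki fragment processing), Rpa1 to Rpa3 (single-strand DNA binding) and Uhrf1 (maintenance methylation). All 41 were found among the 54532 genes of the deposited count tables. The series concerns Eif4g2, which encodes a translation initiation factor, in mouse intestinal stem cells, and its RNA-seq libraries came from crypt and villus tissue fractions and from cultured epithelium. The data used here hold 92 libraries in 21 groups.

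Tissue came from mice with 1 (flox/+, heterozygous) or both (flox/flox, homozygous) copies of Eif4g2 floxed. Every one of these mice, the heterozygous controls included, carried a tamoxifen-activated CreER recombinase and received 4 daily tamoxifen injections of 100 mg per kg. With Rosa26-driven CreER, which is active in most cell types, tissue was taken at day 9: 5 heterozygous and 4 homozygous crypt libraries, and 5 of each genotype from villi. With Vil1-driven CreER, which is active in the intestinal epithelium, tissue was taken at month 3: 4 heterozygous and 3 homozygous crypt libraries, and 4 heterozygous and 6 homozygous villus libraries. The ages of the mice were not given in the sources used here. The heterozygous controls can themselves lose 1 copy of Eif4g2.

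Cultures carried Rosa26-CreER and were exposed to 0.5 µM 4-OHT (4-hydroxytamoxifen, the active form of tamoxifen) for 24 h or to the solvent DMSO, and collected at day 6. The first set of small intestinal organoids, grown in ENR medium (EGF, Noggin and R-spondin), held flox/flox cultures with DMSO (3 libraries) or 4-OHT (3). The second set held 4-OHT-treated flox/flox, flox/+ and +/+ organoids (4 each). Fetal intestinal spheroids were flox/flox with DMSO or 4-OHT (6 each) and flox/+ with DMSO or 4-OHT (5 each). In a separate experiment, organoids in ENR received DMSO or 3, 5 or 10 µM of A-485, a small molecule that blocks the acetyltransferase activity of p300 and CBP, and were collected at day 4 (4 libraries each). Per the labels these 4 lines were 1 Eif4g2 +/+ line and 3 flox/flox lines that had not been given 4-OHT. Where the labels do not say that cultures were started separately, p-values measure the spread between these samples, which may be technical.

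DNA replication starts when the origin recognition complex, with Cdc6 and Cdt1, loads the Mcm2 to Mcm7 hexamer onto origins in G1. In S phase Cdc45 and the GINS complex join the hexamer to form the active helicase, primase and polymerase alpha lay down primers, the Rfc complex loads the Pcna clamp, and polymerases delta and epsilon extend the strands. In the small intestine the dividing stem and transit-amplifying cells sit in the crypts, and the cells that move onto the villi stop dividing. Many of these genes are textbook targets of the E2F transcription factors, which are held back by the retinoblastoma proteins outside S phase.

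RefSeq promoter windows (GRCm38.p6, 250 bases before to 50 after the annotated start) were at hand for 34 of the 41 genes. The stretches below are shown because most of the genes moved together in several comparisons and E2F-type sites are the classical shared feature of their promoters. Mcm5 (chr8:75109311-75109408, + strand, first base 153 before the start), Mcm6 (chr1:128359763-128359860, - strand), Pola1 (chrX:93632241-93632338, - strand) and Uhrf1 (chr17:56304083-56304180, + strand) each hold an E2F-type word, in capitals, read 5′ to 3′ on the gene's strand.
Mcm5: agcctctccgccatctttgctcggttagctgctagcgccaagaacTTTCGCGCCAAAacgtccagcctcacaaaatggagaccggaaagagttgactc
Mcm6: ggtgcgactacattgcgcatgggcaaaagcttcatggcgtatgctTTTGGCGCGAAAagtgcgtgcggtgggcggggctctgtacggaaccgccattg
Pola1: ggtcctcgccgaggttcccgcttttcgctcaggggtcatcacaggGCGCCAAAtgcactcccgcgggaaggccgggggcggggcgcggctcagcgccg
Uhrf1: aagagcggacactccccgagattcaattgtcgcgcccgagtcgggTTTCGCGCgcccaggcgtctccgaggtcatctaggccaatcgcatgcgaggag
One of the words TTTCCCGC, TTTGGCGC, TTTCGCGC and TTTGCCGC, searched on both strands, was present in a window of 15 of the 34 genes (44.1%), against 704 of 27025 RefSeq genes with windows of the same length (2.6%). In Mcm5 and Mcm6 words on the opposite strands overlap, so the capitals run longer. The 2 stretches without such a word are the 150 bases upstream of Tyms (chr5:30073626-30073775, - strand) and Orc2 (chr1:58505110-58505259, - strand), shown because Tyms was called lower, and Orc2 had a positive change, in each of 5 deletion comparisons below.
Tyms: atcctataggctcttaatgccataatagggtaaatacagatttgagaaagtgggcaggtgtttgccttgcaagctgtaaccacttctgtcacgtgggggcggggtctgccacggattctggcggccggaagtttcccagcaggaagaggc
Orc2: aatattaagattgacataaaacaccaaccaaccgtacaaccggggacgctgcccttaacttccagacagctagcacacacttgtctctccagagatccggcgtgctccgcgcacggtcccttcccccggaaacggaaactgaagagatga
The CCAAT word, also searched on both strands, was in a window of 23 of the 34 genes (67.6%) and of 41.1% of all genes. The cell-cycle homology words TTTGAA or TTCGAA were in 7 of the 34 (20.6%) and in 21.7% of all genes. A gene with several windows counts once. The Uhrf1 stretch is from its downstream window (chr17:56304063-56304362), and its upstream window (chr17:56303087-56303386) held no E2F-type word. These are matches of letters and say nothing of whether a factor was bound.

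Libraries held 8652040 to 37611126 counts. A gene is called higher or lower here where edgeR's quasi-likelihood test gave an adjusted p under 0.05 after Benjamini-Hochberg adjustment over all genes tested, and fold changes are on the log2 scale. CPM is a gene's counts scaled to library size with edgeR's normalization factors. Where groups of a called gene are said not to overlap, the gene was picked by a test on the same libraries. The separation then describes the values and is no further support. Eif4g2 itself was lower after deletion in every set: 337 to 357 CPM in heterozygous and 67.9 to 98.2 in homozygous Rosa26 crypts, 704 to 793 against 144 to 148 in the first organoid set, and 733 to 779 against 207 to 251 in flox/+ and flox/flox organoids of the second. In the Vil1 crypts it was 437 to 488 against 231 to 240 CPM.

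Some libraries stood apart for the replication genes. The third 4-OHT library of the first organoid set had a mean log2(CPM + 0.5) over the 41 genes of 5.53, against 4.82 and 4.76 in the other 4-OHT libraries and 5.44 to 5.48 with DMSO, although its Eif4g2 level was as low as theirs. Its line was the only one of the set with counts of the Y-linked gene Ddx3y. Ddx3y was at 44.6 CPM with DMSO and 40.4 with 4-OHT there, against 0 in the other lines. The part of sex in this difference was not tested. In flox/flox spheroids the fifth line went from 5.20 with DMSO to 5.66 with 4-OHT, and in lines 1 to 4 the mean was lower with 4-OHT, by changes of -0.48 to -0.69. In line 6 it was 4.89 with DMSO and 5.04 with 4-OHT, so 2 of the 6 lines were higher with 4-OHT. The first homozygous Rosa26 crypt library had a mean of 4.11, below the other 3, and mitochondrial genes took 25.2% of its counts. Results that rest on these libraries are given with and without them. Leaving out a library or adding a term to a fit alters the calls of all genes. Member counts from such refits are given without the share of all genes, so their shifts cannot be read as particular to these genes.

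**Figure D1:**
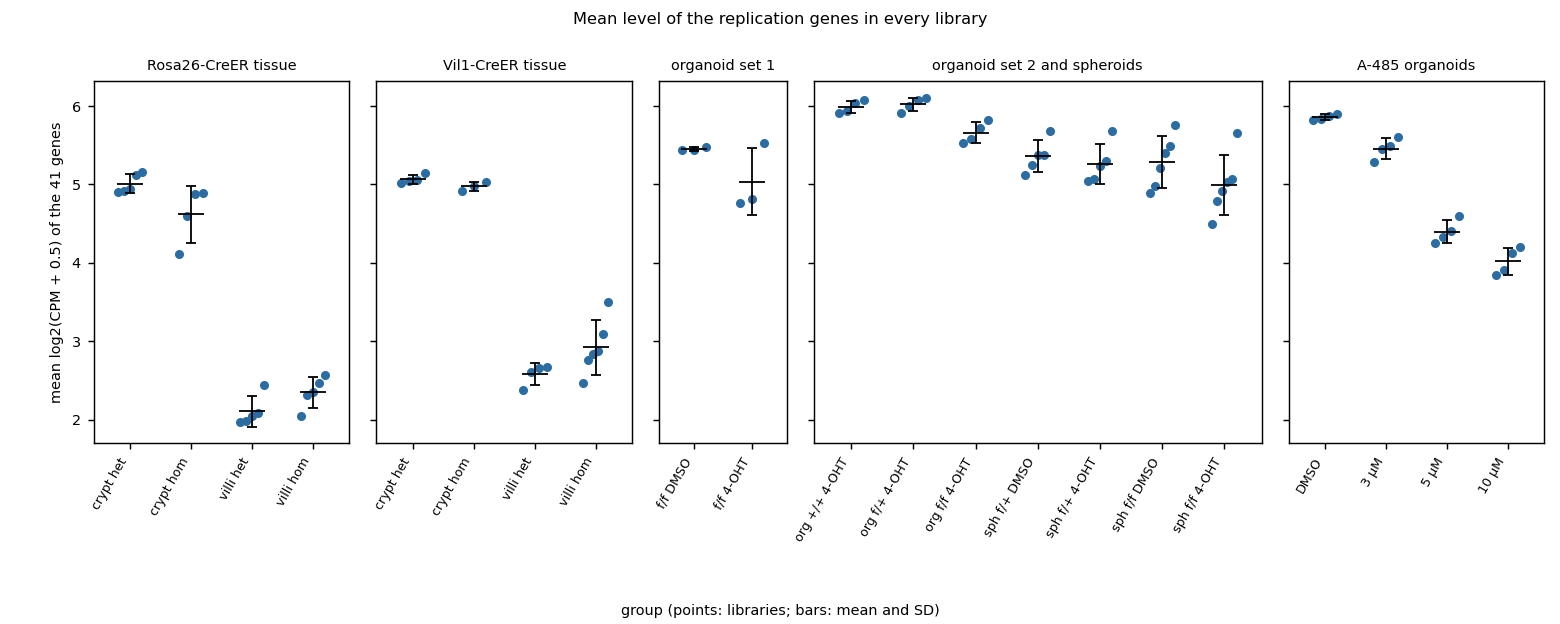
Mean log2(CPM + 0.5) of the 41 replication genes (vertical axis) in every library (points), by group within each of the 5 experiments, with the group mean and SD as bars. Heterozygous crypts average 5.01 and 5.07 and villi 2.10 and 2.58, homozygous Rosa26 crypts reach down to 4.11, 1 library of the 4-OHT group in organoid set 1 sits with the DMSO libraries, and the A-485 groups descend from 5.86 to 4.02.

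All 41 genes were higher in crypts than in villi of heterozygous mice, in both Cre lines. The median log2 difference over the 41 was 3.26 at day 9 in Rosa26 mice and 3.01 at month 3 in Vil1 mice, where the medians over all genes tested were near 0. The crypt-high share of all genes was 40.6% in the first and 35.2% in the second. In these bulk samples a smaller number of dividing cells and less RNA per cell cannot be told apart. Tissue fractions matched their labels: the summed enterocyte markers were 2198 to 3629 CPM in heterozygous Rosa26 crypts and 50996 to 69837 in villi.

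Large crypt-to-villus differences were found in genes of several roles. Mcm2, a subunit of the replicative helicase, was at 89.3, 102, 84.8, 78 and 95.9 CPM in the 5 heterozygous Rosa26 crypts and at 3.73, 1.91, 4.31, 3.44 and 3.23 in the villi. No villus library came near a crypt library, and the log2 difference was 4.76 ± 0.19 (SE). Pola1, the catalytic subunit of polymerase alpha, was at 30.4, 37.6, 28.4, 25.2 and 34.2 CPM in those crypts and at 0.423, 0.356, 1.54, 0.215 and 0.39 in the villi, a difference of 5.79. The villus value of 1.54 came from the third villus library, which was above the others for many of the genes. Orc1, the origin recognition subunit whose protein is made and destroyed each cycle, was at 4.03 to 5.39 CPM in crypts and was not counted at all in 3 of the 5 villus libraries (5.85 in the fitted comparison, which depends on the prior count). Uhrf1, which reads hemimethylated DNA behind the fork, differed by 5.61, and Pole, the catalytic subunit of polymerase epsilon, by 5.06.

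Other members kept an appreciable villus level. Gins4, a GINS subunit, was at 15.4, 17.7, 16.2, 16.3 and 16.2 CPM in heterozygous Rosa26 crypts and at 11.2, 11, 10, 8.22 and 10.1 in the villi. The groups did not overlap, but its difference of 0.68 was the smallest of the 41, and in the Vil1 mice it was 0.36 (edgeR adjusted p = 0.0491). Pcna was at 122 to 144 CPM in crypts and 51.5 to 63.2 in villi, a difference of 1.21, and 1.28 in the Vil1 mice. Rfc2 (0.84), Pola2 (1.32), Rfc3 (1.71) and Cdt1 (1.74) also differed less than the median, so that the clamp and its loader had a median difference of 1.62 where licensing genes had 3.37, polymerases and primase 3.83 and the deoxynucleotide genes 3.99. Per kilobase of gene length, Pcna led in both places, at 54.3 CPM per kb in heterozygous Rosa26 crypts and 23.4 in villi. After it, crypts were led by Pold2 (41.3), Mcm6 (31.2) and Mcm7 (27.5), and villi by Gins4 (7.49), Cdt1 (6.36) and Pola2 (4.32). Orc1 was lowest in both (1.36 and 0.0206 CPM per kb).

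The order of the differences was similar in the 2 Cre lines. Across the 41 genes the log2 differences had r = 0.958 and Spearman's rho = 0.956, a description over genes, which are not independent. Leaving out any 1 library kept all 41 calls in the Rosa26 mice and 40 or 41 in the Vil1 mice. In crypts 40.6% of all genes were higher and 36.4% lower in Rosa26 mice, and 35.2% and 32.7% in Vil1 mice. Of 24 mitosis genes, 24 were higher in crypts in both lines, and of 40 other replication genes 29 were higher and 5 lower in Rosa26 mice (30 and 3 in Vil1 mice). The cell-cycle inhibitor Cdkn1a went the other way, at -2.83 and -2.87.

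With Eif4g2 deleted, some replication genes were lower in crypts, organoids and spheroids, and a few were called in most comparisons. Rfc4, a clamp-loader subunit, and Tyms, which makes thymidylate, were called lower in all 5 comparisons of deletion in crypts or culture (Rosa26 crypts, Vil1 crypts, both organoid sets and flox/flox spheroids). Prim1, the catalytic primase subunit, was called lower in 4 of the 5, and in the fifth, the first organoid set, its log2 change was -0.81 with an edgeR adjusted p of 0.0656. Rfc1 and Pola1 were called in 3, Mcm6, Rfc2, Rfc5 and Pold1 in 2, another 20 members in 1 and 12 in none. Among the 13236 genes tested in all 5 comparisons, 2.94% were called lower in all 5 and 7.59% in 4 or more, where the members had 4.88% (2 of 41) and 7.32% (3 of 41), so such recurrence is at about the same share as over all genes. At least 1 lower call was found for 70.7% of members and 37.6% of all genes. These tallies count calls made in experiments of differing power, and the difference between genes was not tested.

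**Figure D2:**
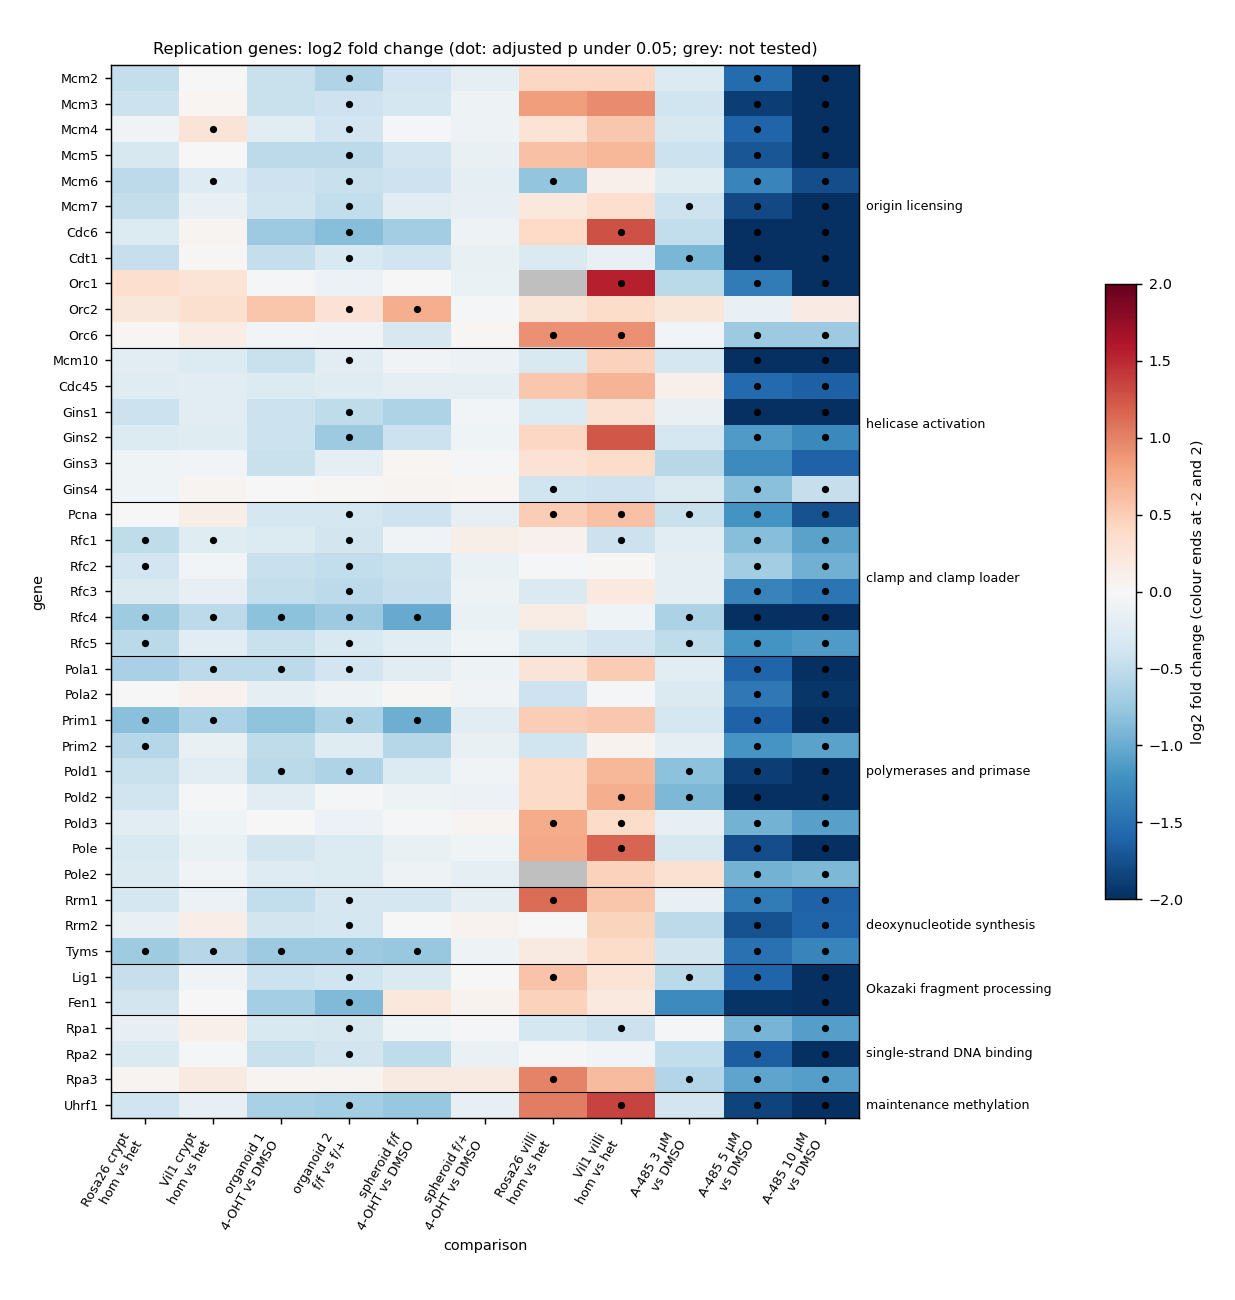
Log2 fold change (colour, ending at -2 and 2) of the 41 genes (rows, by role) in 11 comparisons (columns), with a dot where edgeR's adjusted p was under 0.05 and grey where a gene was not tested. Rfc4 and Tyms carry a dot in the 5 deletion comparisons at the left, and at 10 µM A-485 39 of the 41 genes carry one.

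Homozygous Rosa26 crypts at day 9 had 7 members lower than heterozygous ones and none higher, against 11.6% of all genes lower and 8.63% higher. Over the 41 members the median log2 change was -0.33 (all genes 0.04), and 36 of the 41 values were below 0. The called members were Rfc1, Rfc2, Rfc4 and Rfc5 of the 6 clamp and loader genes, Prim1 and Prim2 of the 9 polymerase and primase genes, and Tyms. Prim1 was at 23.9, 29.1, 25.9, 27.1 and 29.4 CPM in the heterozygous crypts and at 8.05, 17.4, 13.7 and 19.2 in the homozygous ones, with no overlap (log2 change -0.84 ± 0.21 SE, edgeR adjusted p = 0.0223). Rfc4 was at 18.6, 18.5, 17.4, 17.5 and 19.9 CPM in heterozygotes and 6.96, 12.8, 10.4 and 13.2 in homozygotes, also with no overlap (-0.71 ± 0.16, edgeR adjusted p = 0.017). Tyms was at 34 to 48 and 16.2 to 28.4 CPM (-0.72 ± 0.16, edgeR adjusted p = 0.0122).

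No licensing, helicase-activation, ligation or single-strand binding gene was called in these crypts, with 18 of the 41 members at an unadjusted p under 0.05. Mcm2 had a log2 change of -0.47 (edgeR adjusted p = 0.0587), Pola1 of -0.65 (0.0556), Cdt1 of -0.47, Mcm5 of -0.33, Cdc6 of -0.27 and Cdc45 of -0.24. Pcna stood at -0.01 (edgeR adjusted p = 0.977), and Orc1 (0.33), Orc2 (0.23) and Rpa3 (0.06) were the most positive. The count of 7 became 6 without the first homozygous library, 1 without homozygous replicate 4, 14 without homozygous replicate 5, 4 without heterozygous replicate 2 or 3 and 3 without heterozygous replicate 5. With the replicate number as a block it was also 4, but that fit too lacked heterozygous replicate 2, which has no homozygous partner. The 2 changes to the fit cannot be told apart. Crypt stem cell markers summed to 4426 to 7546 CPM in the heterozygous and 345 to 1216 in the homozygous libraries, with 5 of 6 genes called lower, and Paneth cell markers to 15121 to 20947 and 2160 to 9621, with 5 of 5 called lower. Their part in the result was not tested. Goblet cell markers summed to 4811 to 9239 and 1654 to 4648 CPM (2 of 5 lower). Mitochondrial genes took 6.24 to 12.4% of the counts of heterozygous and 13.7 to 25.2% of homozygous libraries, without overlap, and without those genes the count was again 7. Immune markers ranged from 184 to 697 CPM in heterozygotes and 107 to 1880 in homozygotes, and 0 of 10 were called. A yes-or-no term for the Y-linked gene Ddx3y (over 1 CPM) was added to the fit, since sex overlapped with genotype. It gave 28 members lower. Such a term alters the calls of all genes, and the share of all genes under it is not given here.

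At month 3 the Vil1 crypts had 6 members lower and 1 higher, with 17.7% of all genes lower and 11.6% higher, so the members' share of lower calls was close to the background. The median over the 41 was -0.07. Prim1 was at 37.4, 37, 32.1 and 38.7 CPM in heterozygous and 20.4, 25.2 and 24.2 in homozygous crypts (log2 change -0.64, edgeR adjusted p = 0.00277). Tyms was at 35.6, 30, 37.7 and 41.2 against 22.5, 25.8 and 24.4 CPM (-0.57, edgeR adjusted p = 0.00775), and Rfc4 at 20.4, 20, 21.8 and 23.5 against 14.4, 13.8 and 16.6 (-0.52 ± 0.10, edgeR adjusted p = 0.00697). In each of the 3 genes every homozygous library was below every heterozygous one, which adds nothing to calls made on the same libraries. Pola1 (-0.53), Mcm6 (-0.26) and Rfc1 (-0.24) were also lower, and Mcm4, another helicase subunit, was higher by 0.25 (edgeR adjusted p = 0.0242).

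For the licensing genes Mcm2 and Mcm5 no change was called in the Vil1 crypts: leaving out any 1 library, the log2 change of Mcm2 stayed within -0.0016 and 0.036 and that of Mcm5 within -0.014 and 0.059. No member was called when the spread was estimated with the villus groups as well, and leaving out 1 library gave 4 to 6 lower calls. Crypt stem markers summed to 5735 to 6275 CPM in heterozygotes and 613 to 930 in homozygotes (4 of 6 genes lower), goblet markers to 3505 to 5460 and 1340 to 1822 (3 of 5 lower), Paneth markers to 3038 to 6778 and 356 to 909 (5 of 5 lower), and mitochondrial genes took 17.5 to 30.8% and 30.4 to 40.3% of counts; their part in the result was not tested. Without the mitochondrial genes the counts were again 6 and 1. Across the 41 genes the Rosa26 and Vil1 crypt changes, from separate mice, had r = 0.834 (rho = 0.735).

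The second organoid set had the most calls of the 5 comparisons. There 28 members were lower and 1 higher in 4-OHT-treated flox/flox than flox/+ organoids, with 24.3% of all genes lower and 22.6% higher, and the median over the 41 was -0.36. Every clamp and loader gene (6 of 6), all 3 deoxynucleotide genes, 8 of 11 licensing genes and 3 of 9 polymerase and primase genes were called lower. In 26 of the 29 called genes the 4 flox/flox libraries and the 4 flox/+ libraries did not overlap, and in Rrm1, Rrm2 and Rpa2 they did. These genes were picked by a test on the same libraries, so the separation adds nothing to the calls. The share of all genes without overlap was not computed. Leaving out any 1 library gave 27 to 31 lower.

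The licensing genes moved furthest through Cdc6, which was at 33, 27.5, 22.9 and 26.8 CPM in flox/flox and 45.3, 47.2, 55.4 and 50.2 in flox/+ organoids (log2 change -0.86, edgeR adjusted p = 9.2e-06). Mcm2 was at 142, 123, 109 and 128 CPM against 181, 184, 199 and 197 (-0.61), with +/+ organoids at 187, 204, 181 and 209. Both control genotypes lay above every flox/flox library. Mcm5 was lower by the same test at -0.52, Cdt1 at -0.31, and Cdc45 was not called at -0.24. Uhrf1 was at 141, 135, 108 and 122 CPM against 168, 199, 208 and 229 (-0.68, edgeR adjusted p = 0.000134).

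The recurring genes were separate from both control genotypes in this set, which again adds nothing to calls made on the same libraries. Rfc4 was at 26.1, 27.7, 24.3 and 21.6 CPM in flox/flox, 39, 37.6, 42.1 and 44.4 in flox/+ and 36.2, 39.4, 41.2 and 42.9 in +/+ organoids, a log2 change of -0.72 against flox/+ (edgeR adjusted p = 1.2e-05). Tyms was at 47.6, 42.9, 38.9 and 37.2 CPM in flox/flox and 66, 65.8, 69.6 and 71.2 in flox/+ (-0.72, edgeR adjusted p = 6.13e-06), and Prim1 at 37.7, 36.5, 30.6 and 30.7 against 45.1, 51.1, 55.1 and 58 (-0.64). The flap nuclease gene Fen1 had the largest change, -0.89 ± 0.18 (edgeR adjusted p = 0.00106), at 6.81, 5.49, 3.8 and 4.99 CPM in flox/flox and 8.03, 9.16, 11.5 and 10.1 in flox/+. Orc2 was higher, at 51.5, 42.6, 42.5 and 39.9 CPM against 33.6, 37.2, 35 and 37.9 (0.29, edgeR adjusted p = 0.0161). That call was lost without the first flox/flox library, with a change of 0.20.

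Against +/+ organoids, which share the flox/flox libraries with the comparison above, 26 members were lower and 1 higher (23.5% and 21.9% of all genes), with a median of -0.37. Prim1 was lowest at -0.77 and Orc2 highest at 0.27. Between flox/+ and +/+ organoids edgeR called none of the 41 lower or higher, with 2 at an unadjusted p under 0.05 and a median of 0.02, where 0.0633% and 0.0492% of all genes were called. Crypt stem markers summed to 2475 to 3589 CPM in flox/flox, 6956 to 9217 in flox/+ and 7561 to 9324 in +/+ organoids, and 6 of 6 were lower in flox/flox than flox/+; their part in the result was not tested.

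Deletion by 4-OHT within flox/flox organoids of the first set gave 4 members lower and none higher, with 17.2% of all genes lower and 18.2% higher, fewer than that share of 41. Rfc4 was at 22, 21 and 19.2 CPM with DMSO and 8.22, 10.6 and 16.6 with 4-OHT (log2 change -0.82 ± 0.24, edgeR adjusted p = 0.0372). Tyms was at 39.3, 39.8 and 43 against 19.1, 20.4 and 34.3 CPM (-0.73, edgeR adjusted p = 0.0381). In both genes the third 4-OHT library was the highest of its group but below the DMSO libraries. The other calls were Pold1, the catalytic subunit of polymerase delta (-0.54), and Pola1 (-0.53).

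The median change of the members in this set was -0.43 and 39 of the 41 were below 0, with only Orc2 (0.55) and Rpa3 (0.06) above. Without the third 4-OHT library 36 members were lower. Without DMSO replicate 1 or 2, or 4-OHT replicate 1 or 2, none was, and without DMSO replicate 3 there was 1. With the culture line as a block, since DMSO and 4-OHT cultures of a number are of the same line, 12 members were lower and 1 higher. Each such change of the fit alters the calls of all genes, and the shares of all genes under these settings are not given here. Crypt stem markers were at 1945 to 2332 CPM with DMSO and 601 to 664 with 4-OHT, with the third 4-OHT library inside that low range; their part in the result was not tested. The changes of the 41 genes in the 2 organoid sets, which share no library, had r = 0.859 (rho = 0.737).

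Fetal spheroids gave few calls. With 4-OHT, 3 members, Rfc4, Prim1 and Tyms, were lower and 1 higher in flox/flox lines, where 10% of all genes were lower and 9.01% higher, so the members' share is below the background, and the median over the 41 was -0.28. Rfc4 had a lowest, median and highest level of 19.8, 28.8 and 41.2 CPM with DMSO and 8.4, 13.5 and 25 with 4-OHT (log2 change -1.0 ± 0.23, edgeR adjusted p = 0.00474). Prim1 was at 22.2, 29.98 and 54.2 CPM (lowest, median, highest) with DMSO and 11.4, 18.0 and 22.8 with 4-OHT (-0.98, edgeR adjusted p = 0.00999), and Tyms at 28.4, 46.9 and 52 and at 13.9, 21.4 and 46.4 (-0.76, edgeR adjusted p = 0.0278). The groups overlapped in all 3 genes. Orc2 was higher, at 17.4, 23.3 and 27.5 CPM with DMSO and 26, 34.6 and 66.3 with 4-OHT (0.73, edgeR adjusted p = 0.0101), its highest value being in the fifth line.

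Goblet cell markers summed to 2426 to 17893 CPM with DMSO and 127 to 1365 with 4-OHT, without overlap (3 of 5 lower). Crypt stem markers had a median of 1351 CPM with DMSO (968 to 7050) and 646 with 4-OHT (533 to 1094), with 2 of 6 lower. Paneth markers ran from 71.9 to 3986 CPM with DMSO, so these lines differed widely before deletion. The part of these markers in the result was not tested. Without the fifth 4-OHT line 12 members were lower, without the sixth DMSO line 6, and without DMSO line 1 or 3 or 4-OHT line 1, 2, 4 or 6 there were 2. The line as a block gave 7. This and the other refits in this paragraph alter the calls of all genes. The shares of all genes under them are not given here, so the counts are not compared with a background. Uhrf1 had a change of -0.76 (edgeR adjusted p = 0.0603) and Cdc6 of -0.69, neither called. In flox/+ spheroids edgeR called no gene of any kind after 4-OHT (0% lower and 0% higher), and no member had an unadjusted p under 0.05. The difference in the 4-OHT response between flox/flox and flox/+ spheroids was called for no member by the interaction test (2 at an unadjusted p under 0.05; 0.971% of all genes lower and 0.645% higher), its values running from -0.87 for Rfc4 to 0.75 for Orc2. With the line as a block in that test 2 members were lower and 1 higher. Between 4-OHT-treated genotypes Rfc4 (-0.96, edgeR adjusted p = 0.0137) and Prim1 (-0.85, edgeR adjusted p = 0.043) were lower in flox/flox, where 6.13% of all genes were lower and 4.36% higher; without the fifth flox/flox line 7 members were. Between the genotypes with DMSO none of the 41 was called, none at an unadjusted p under 0.05.

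**Figure D3:**
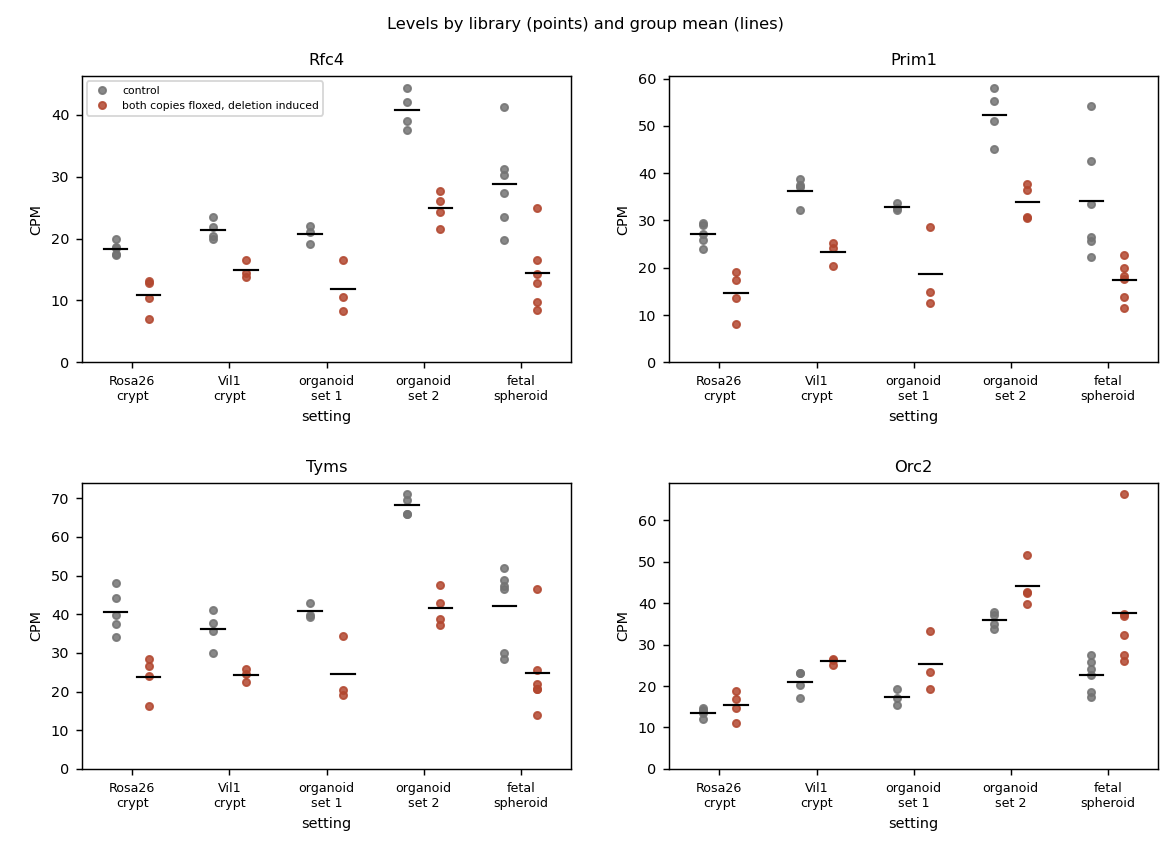
CPM (vertical axes) of Rfc4, Prim1, Tyms and Orc2 in each library (points; grey, controls; red, both copies floxed and deletion induced), with lines at the means, in the 5 settings along the horizontal axes. The red means of the first 3 genes lie below the grey ones in each setting, and that of Orc2 lies above, with a called difference for Orc2 in organoid set 2 and fetal spheroids.

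Orc2 and Rpa3 were the members with a positive change in all 5 of these comparisons. Orc2, an origin recognition subunit, had changes of 0.23, 0.32, 0.55, 0.29 and 0.73, called in the last 2, and Rpa3, the smallest RPA subunit, of 0.06, 0.18, 0.06, 0.06 and 0.18, never called. Part of the exons of 14 members lie over exons of another gene, and whether the counting used strand was not given in the sources used here. For Orc2 29.8% of its exon bases are shared with Nif3l1 on the opposite strand, whose own change was between -0.18 and 0.12 and never called in the 5 comparisons. For Rfc4 12.7% are shared with Eif4a2, a translation factor gene that was called higher in all 5, by 1.14, 0.51, 0.77, 0.74 and 0.71, the opposite direction from Rfc4. Fen1 shares 78.8% with Gm10143 and Gins2 67.3% with Gse1, so the values of Fen1 and Gins2 are uncertain. Smaller shares were found for Rfc2 (15.1% with Lat2), Orc1 (10.8% with Gm12743) and Rfc5 (10.7% with Wsb2), all on the opposite strand. These overlapping genes were looked at after the members' values were seen.

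In villi the members were called at about the share of all genes or less. In Rosa26 mice, where 39 of the 41 members passed the low-count filter (Orc1 and Pole2 did not), 2 were lower and 6 higher in homozygous than heterozygous villi, against 18.2% of all genes lower and 15% higher. Rrm1, the large subunit of ribonucleotide reductase, was at 6.3, 7.65, 10.3, 7.41 and 7.9 CPM in heterozygotes and 15.8, 23.8, 18.2, 17.3 and 13.8 in homozygotes (log2 change 1.11, edgeR adjusted p = 0.000831). The groups did not overlap. Rpa3 (0.99), Orc6 (0.92), Pold3 (0.74), Lig1 (0.57) and Pcna (0.50, edgeR adjusted p = 0.0302) were also higher. Mcm6 was lower, at 16.3, 21.6, 15.7, 15 and 17.9 CPM against 11.8, 9.21, 10.9, 7.44 and 12.5 (-0.78, edgeR adjusted p = 0.00361), as was Gins4 (-0.40). Without heterozygous replicate 3 the higher count was 11, and leaving out 1 library gave 1 to 3 lower. Pan-epithelial markers summed to 7829 to 9853 CPM in heterozygous and 10572 to 13997 in homozygous villi (3 of 5 higher, 1 lower), immune markers to 366 to 946 and 158 to 344 (5 of 10 lower), and enteroendocrine markers to 215 to 440 and 46.0 to 227 (3 of 4 lower); their part in the result was not tested.

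At month 3, 8 members were higher and 2 lower in homozygous Vil1 villi, with 20.9% of all genes higher and 21.6% lower. Cdc6, which helps load the helicase, was at 2.14, 2.08, 2.02 and 1.06 CPM in heterozygous villi and between 3.44 and 5.7 (median 4.44) in the 6 homozygous libraries, without overlap (log2 change 1.27, edgeR adjusted p = 0.00212). Orc6 (0.91), Pcna (0.58) and Pold3 (0.37) were higher here as in the Rosa26 villi. Orc1 (1.56), Uhrf1 (1.36), Pole (1.16) and Pold2 (0.72) were higher and Rfc1 (-0.43) and Rpa1 (-0.42) lower, and in these and Pold3 the groups overlapped. Goblet markers summed to 9280 to 14810 CPM in heterozygous and 1568 to 2669 in homozygous villi (5 of 5 lower), enteroendocrine markers to 291 to 540 and 55.2 to 102 (4 of 4 lower), and pan-epithelial markers to 6193 to 7045 and 9090 to 11765 (4 of 5 higher), all without overlap; their part in the result was not tested. The higher count was 3 without heterozygous replicate 4 or homozygous replicate 2 or 4, 4 without heterozygous replicate 1 or homozygous replicate 6, 5 without heterozygous replicate 2 or homozygous replicate 3, and 15 without homozygous replicate 5. Across 39 genes tested in both lines the villus changes had r = 0.699 (rho = 0.749).

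The genotype effect was tested for a difference between villi and crypts in each Cre line. In the Rosa26 mice 13 members had a more positive change in villi and none a more negative one (6.68% and 4.86% of all genes). Rrm1 differed by 1.58 (edgeR adjusted p = 0.000541), Lig1 by 1.13, Pold3 by 1.07, Mcm2 by 1.00 (edgeR adjusted p = 0.0245), and Prim1, Tyms and Rfc4 by 1.46, 1.01 and 0.96. With the animal as a block the count was 4. Leaving out 1 library gave 4 to 18, with 4 to 8 for 12 of the 19 libraries and 4 without the homozygous crypt replicate 1 or 4. In the Vil1 mice 3 members differed upward in villi, Cdc6 (1.25), Orc6 (0.79) and Pcna (0.48), and Rpa1 downward (-0.50), against 9.38% and 6.14% of all genes. With the animal as a block these were 11 and 0, and leaving out 1 library gave an upward count of 1 to 13, the 13 without the villus homozygous replicate 5.

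Spheroids and organoids of the same flox/+ genotype after 4-OHT also differed. Of the 41 genes 34 were lower in fetal spheroids than organoids and none higher, where 22.8% of all genes were lower and 25.1% higher, with a median of -0.78. Rfc3 (-1.35) and Fen1 (-1.34) differed most, Pcna was at 178 ± 19.6 CPM (SD, n = 5) in spheroids and 372 ± 19.4 (n = 4) in organoids (-1.11), and Gins4 (0.01), Orc6 (-0.08), Cdt1 (-0.29) and Rrm2 (-0.30) were not called. Crypt stem markers had a median of 1739 CPM in these spheroids (979 to 8794) and 7928 in organoids (6956 to 9217), with 1 of 6 lower. Paneth markers had a median of 200.4 CPM (97.9 to 4803) and 5436 (5220 to 5757), with 0 of 5 called. The spheroid libraries thus differed widely among themselves, the highest lying within the organoid range for crypt stem markers. The part of these markers in the result was not tested. The effect of the homozygous genotype did not differ by call between the 2 culture types for any member, with none at an unadjusted p under 0.05 (0.0332% of all genes lower and 0.0199% higher).

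A-485 gave the largest changes in the replication genes outside the crypt-to-villus axis. The 3 doses share the same 4 DMSO libraries. At 3 µM 9 of the 41 were lower and none higher (8.42% and 10.8% of all genes), at 5 µM 38 were lower (25.1% of all genes lower, 24.4% higher) and at 10 µM 39 (32.6% and 29.4%). The median over the 41 went from -0.35 to -1.55 and -1.95. Eif4g2 was not called at any dose (0.16, 0.03 and 0.20).

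The first members to be called, at 3 µM, were Cdt1 (log2 change -0.91, edgeR adjusted p = 0.00675), Pold2 (-0.89, edgeR adjusted p = 0.00107), Pold1 (-0.82), Rfc4 (-0.64), Rpa3 (-0.58), Lig1 (-0.53), Rfc5 (-0.51), Pcna (-0.45) and Mcm7 (-0.41). Fen1 had a larger value, -1.27, that was not called. Without 1 library the count was 2 to 8; it was 2 without DMSO replicate 4, 3 without DMSO replicate 1, 4 without DMSO replicate 3 or 3 µM replicate 1, and 5 without 3 µM replicate 2 or 4.

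Cdt1, the licensing factor, was at 109, 77.6, 93.6 and 98.5 CPM with DMSO, 52.8, 54.8, 62.9 and 30.8 at 3 µM, 19.1, 18.9, 20.7 and 17.8 at 5 µM and 9.1, 11.1, 12.6 and 5.09 at 10 µM. No dose overlapped with the next, and at 10 µM its change of -3.30 ± 0.24 (SE; edgeR adjusted p = 2.03e-09) was the largest of the 41. Pold2, an accessory subunit of polymerase delta, was at 118, 101, 111 and 101 CPM with DMSO, 54.7, 66.5, 74.5 and 36.7 at 3 µM, 24.7, 29.1, 23.9 and 26.1 at 5 µM and 11.4, 13.3, 14.6 and 10.8 at 10 µM (-3.10, edgeR adjusted p = 1.54e-10). It too was separate at every step. Mcm10, which helps start the helicase, was at 50.3, 42.9, 45.7 and 39.3 CPM with DMSO and 28.9, 28.4, 31.4 and 51.1 at 3 µM, where 1 library lay above all controls. It fell to 4.29, 9.3, 10.5 and 6.74 at 5 µM and 2.65, 6.91, 8.6 and 5.42 at 10 µM (-2.91).

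In most members the step from 3 to 5 µM was the large one. Tested directly, 37 of the 41 were lower at 5 than 3 µM (13% of all genes; median -1.14), and 12 were lower at 10 than 5 µM (12.4% of all genes lower and 6.44% higher; median -0.41). Mcm2 was at 173, 156, 179 and 173 CPM with DMSO, 132, 132, 161 and 137 at 3 µM, 74.7, 64.3, 55.6 and 38.5 at 5 µM and 31, 40, 39 and 34.3 at 10 µM. Uhrf1 was at 174, 160, 192 and 172, then 136, 133, 155 and 119, then 62.4, 44.4, 43.9 and 42.8, and at 10 µM 29.1, 37.1, 33.6 and 20.4 CPM. In both genes the 5 µM libraries lay below every 3 µM library. Among the 12 that were lower at 10 than 5 µM, Orc1 (-1.23), Pold2 (-1.05), Pola1 (-1.05) and Cdt1 (-1.0) changed most, 6 of the 12 being licensing genes.

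At 10 µM the Okazaki fragment genes had a median change of -2.47 (2 of 2 lower), the licensing genes of -2.35 (10 of 11 lower), polymerases and primase of -2.26 (9 of 9), helicase activation of -1.63 (5 of 6), the deoxynucleotide genes of -1.60 (3 of 3), the clamp and loader of -1.30 (6 of 6) and the RPA genes of -1.10 (3 of 3). Mcm5 was at -2.36, Cdc6 at -2.35, Pola1 at -2.66, Rfc4 at -2.62, Uhrf1 at -2.53, Pcna at -1.75, Cdc45 at -1.63, Rrm2 at -1.60 and Rfc3 at -1.46, all called. Rfc4 went from 39.1, 35.1, 30.2 and 42.7 CPM with DMSO to 22.2, 20.9, 24 and 27.4 at 3 µM, 9.86, 8.88, 6.84 and 7.8 at 5 µM and 4.58, 5.43, 7.28 and 6.64 at 10 µM. The 5 and 10 µM levels touch, and the others are apart. The smallest called changes were in Gins4 (-0.46, edgeR adjusted p = 0.0346) and Orc6 (-0.73).

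The members that were not called at 10 µM were Orc2 and Gins3. Orc2 was at 26.2, 26, 25.7 and 27.7 CPM with DMSO, 29, 27.9, 31.8 and 36.7 at 3 µM, 23.9, 23.9, 21.8 and 25.8 at 5 µM and 27.6, 27, 36.3 and 27.1 at 10 µM (0.16, edgeR adjusted p = 0.317). Its level thus stayed near the controls while the other licensing genes fell. Gins3 was at 3.77, 8.3, 5.16 and 7.27 CPM with DMSO and 1.5, 0.939, 1.99 and 3.65 at 10 µM (-1.62, edgeR adjusted p = 0.0604), a low level with few counts.

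Leaving out any 1 library gave 38 lower at 5 µM and 38 or 39 at 10 µM. The mean change over the 41 genes in each of the 4 lines, against the DMSO library of the same line, was -1.99, -1.69, -1.64 and -2.03 at 10 µM, the first being the Eif4g2 +/+ line. Crypt stem markers summed to 8222 to 9593 CPM with DMSO, 2046 to 3279 at 3 µM, 1010 to 1070 at 5 µM and 528 to 629 at 10 µM, and Paneth markers to 4330 to 6471 with DMSO and 23 to 42.2 at 10 µM, with 6 of 6 and 5 of 5 called lower; their part in the result was not tested. Of the 24 mitosis genes 2, 24 and 24 were lower at 3, 5 and 10 µM, against 8.42%, 25.1% and 32.6% of all genes. Genes of other replication factors were lower in 2, 31 and 32 of 40 cases and higher in 1, 2 and 3, the p53-linked reductase subunit Rrm2b being among the higher ones (1.23, 2.01 and 3.15).

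**Figure D4:**
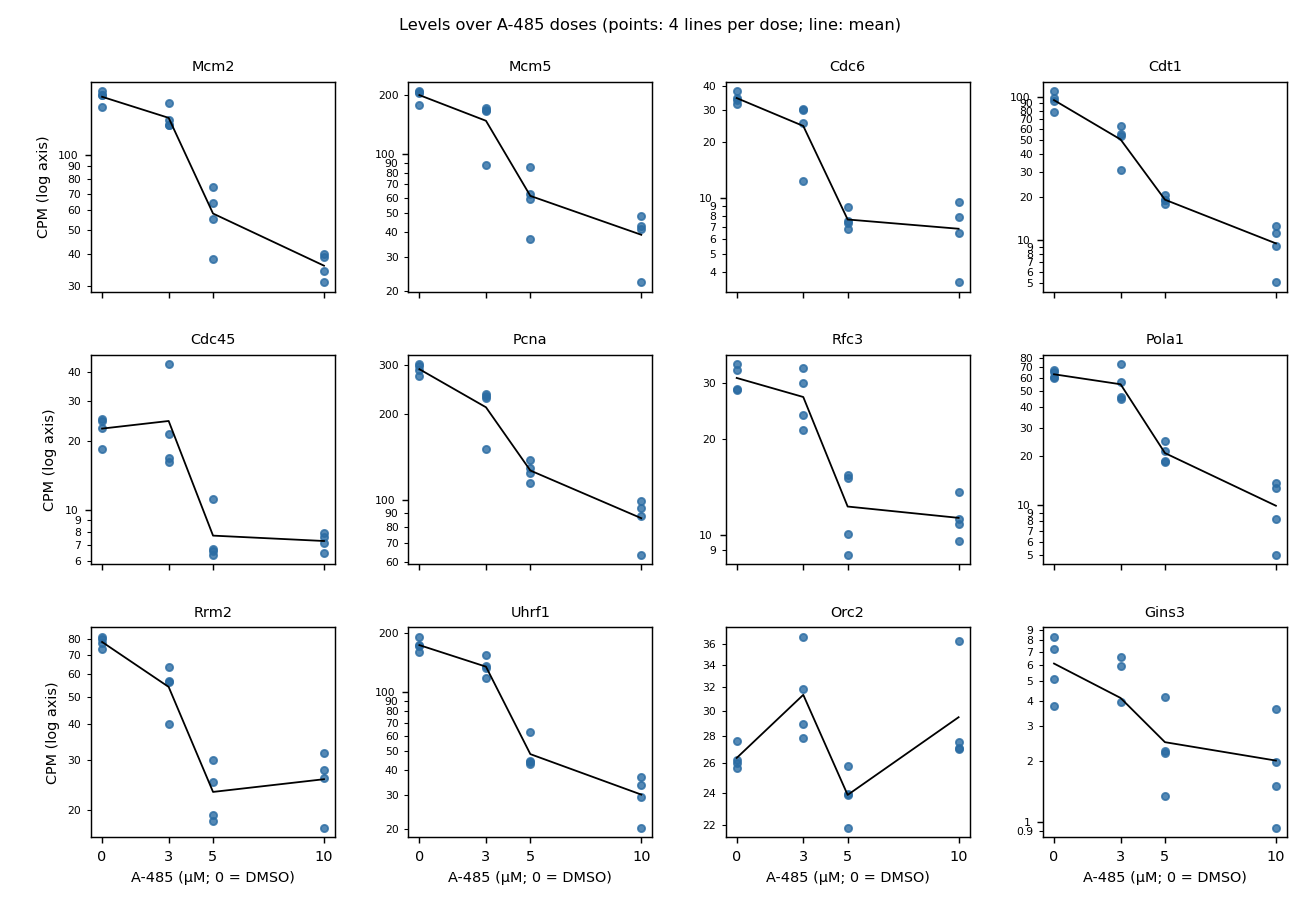
CPM (log axes) of 12 replication genes against A-485 dose (µM, 0 being DMSO), with a point for each of 4 lines per dose and a line through the means. Cdt1 steps down at every dose, Mcm2 and Uhrf1 fall mainly between 3 and 5 µM, and Orc2 stays between 21.8 and 36.7 CPM; a Gins3 value of 0 CPM at 3 µM cannot be drawn on the log axis.

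Set side by side, Eif4g2 deletion and A-485 ordered the genes by change in part differently. Across the 41 genes the changes in flox/flox against flox/+ organoids and at 10 µM A-485, which share no library, had r = 0.408 (rho = 0.301), and those in Rosa26 crypts and at 10 µM r = 0.343 (rho = 0.309). Tyms and Prim1, recurrent with deletion, were among the called genes at 5 and 10 µM but not at 3 µM, and Rfc4 was called at every dose. The 15 members with an E2F-type word in the window had a median change of -2.38 at 10 µM and the 19 without of -1.63. The same medians were -0.41 and -0.34 in flox/flox against flox/+ organoids, and 3.54 and 2.88 from villi to crypts in heterozygous Rosa26 mice. These are descriptions, and the difference between the groups of promoters was not tested.

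Genes around the 41 in the cycle moved partly with them. Of the 24 mitosis genes 17 were lower in homozygous Rosa26 crypts and 19 in Vil1 crypts (medians -0.57 and -0.48), with none higher, but 1 in the first organoid set, 11 (1 higher) in the second and none in flox/flox spheroids. In the same order 11.6%, 17.7%, 17.2%, 24.3% and 10% of all genes were lower. The higher shares of all genes were 8.63%, 11.6%, 18.2%, 22.6% and 9.01%. Nusap1, a spindle protein gene, was at -0.91 and -0.87 in the 2 crypt comparisons and Mki67, the proliferation marker, at -0.71 and -0.72. Of 40 other replication genes 5 were lower in Rosa26 crypts, 4 lower and 1 higher in Vil1 crypts, and 16 lower and 4 higher in the second organoid set. For this list the lower calls in Rosa26 crypts were near the share of all genes, and those in Vil1 crypts below it. In the second organoid set they were above that share. Tk1, thymidine kinase of the salvage route to the same nucleotide that Tyms makes, had the largest change among the called genes of that list in all 5 comparisons: -1.50, -1.14, -1.02, -0.87 and -0.92.

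Of the 31 E2F and G1/S regulators listed, 6 were called lower and 2 higher in Rosa26 crypts (11.6% and 8.63% of all genes). In Vil1 crypts 7 were lower and 12 higher (17.7% and 11.6% of all genes). Cdkn1c, a cyclin-dependent kinase inhibitor gene, was lower in all 5 comparisons, at -1.19, -1.47, -1.33, -0.82 and -4.37. Cdkn2a, which encodes p16 and Arf, was at 393 to 639 counts in the 3 homozygous Vil1 crypt libraries and at 0 to 2 in the 4 heterozygous ones, and the p53 target Cdkn1a was higher there by 1.36. E2f8, a repressive E2F, was lower by 0.61 on the log2 scale in Vil1 crypts, and Ccne1 and Ccne2, the cyclin E genes, were higher by 0.60 and 0.31. With A-485, Cdkn2a was higher by 3.89, 4.72 and 4.52 at the 3 doses, E2f8 was at -0.61, -1.95 and -2.37, E2f1 at -0.86 at 5 µM and -0.48, not called, at 10 µM, and Mki67 at -1.76 and -2.41 at 5 and 10 µM.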

How the data were processed

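RNA-seq was analysed from 92 mouse libraries in 4 tables of raw counts per gene. The authors deposited these counts unnormalized; per the submitters' processing notes HISAT2 2.0.5 and GRCm38 (mm10) were used, in roles not stated, and per the labels' protocols the libraries were poly(A)-selected and directional. The counting program, gene annotation and use of strand are not given in the sources used here. The deposited gene length column gave the CPM per kb. All sample columns were used (0 left out).

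The 41 members and all gene lists were chosen with earlier results of these data known, so no member count is independent support. Genes were named by a rule: 10 core members, the 3 largest and 3 smallest changes, called members against the majority, and for other lists up to 5 called genes with the largest change plus fixed regulators. Each of 20 comparisons and 4 interaction tests was fitted across all genes passing filterByExpr with edgeR 4.0.16 (R 4.3.3; TMM, quasi-likelihood test, Benjamini-Hochberg adjustment, threshold 0.05). Members of roles are compared only by their counts and medians. Simulated counts with known changes were recovered at 43% of genes changed by 1 log2 unit and 78% by 2 in the Rosa26 crypt design (15570 genes). The shares were 53% and 79% for 10 µM A-485 (13380) and 46% and 68% for flox/flox spheroids (14765). In each design only 100 genes were changed by each size, far fewer than were called in the real fits. The adjusted p is stricter when few genes change, so these shares do not measure how often real changes were called. No libraries of a group were duplicates (smallest chi-square per degree of freedom 6.26).

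Alternatives were DESeq2 1.42.0, its size factors, no filter, other groups in the fit, a replicate block and each library left out. Replicate numbers pair libraries where they mark the same line or animal: the first organoid set (correlation of deviations 0.437 to 0.582), flox/flox (0.42 to 0.811) and flox/+ spheroids (0.666 to 0.913), the A-485 lines (0.0954 to 0.378) and crypt with villi. In Rosa26 crypts every pair was above 0.1 (0.107 to 0.639), although the 2 genotypes are different mice. Only 2 of those 4 pairs correlated best with their own number. In Vil1 crypts (-0.192 to 0.349) and the second organoid set (-0.288 to 0.0243) the numbers do not pair the libraries.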

Additional observations from a re-analysis of the deposited data

Results flagged for a closer look

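In 198 checks of a library against the rest of its group (groups of 4 to 6 libraries, the 10 core members and the mean of the 41), 19 values lay far from the others, where chance gives about 1 in 20. In the villi of heterozygous Rosa26 mice replicate 3 was high: its mean log2(CPM + 0.5) over the 41 genes was 2.44, Mcm5 was at 5.92 CPM and Pola1 at 1.54 CPM. In homozygous Rosa26 villi Pcna was at 121 CPM in replicate 5, above 64.5 to 77.1 in the others. In flox/flox spheroids with 4-OHT, line 5 was high for Mcm2 (152 CPM), Mcm5 (172 CPM) and Rrm2 (136 CPM), and in flox/+ spheroids with 4-OHT replicate 5 was high for Pola1 (69.4 CPM) and Uhrf1 (149.6 CPM).

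With A-485 at 3 µM, replicate 4 was low for Mcm5 (87.9 CPM) and Pcna (151 CPM), and at 5 µM replicate 1, the Eif4g2 +/+ line, was high for Cdc45 (11.1 CPM) and Uhrf1 (62.4 CPM). With DMSO in the same experiment Mcm5 was low in replicate 2 (177 CPM). In the Vil1 mice Cdc45 was high in heterozygous crypt replicate 4 (19.3 CPM), Cdc6 (1.06 CPM) and Uhrf1 (1.58 CPM) were low in heterozygous villus replicate 4, and Pola1 (6.71 CPM) and Rrm2 (10.03 CPM) were high in homozygous villus replicate 4.

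The genotype change differed between villi and crypts, by edgeR's interaction test with Benjamini-Hochberg adjustment, for 13 members in Rosa26 mice and 4 in Vil1 mice. Of all genes 6.68% were more positive and 4.86% more negative in villi of Rosa26 mice, and 9.38% and 6.14% in Vil1 mice. With the animal as a block, 4 members were more positive in Rosa26 mice. In Vil1 mice 11 were more positive and 0 more negative. All 13 in the Rosa26 mice were more positive in villi on the log2 scale: Rrm1 by 1.58, Prim1 by 1.46, Mcm3 by 1.40, Lig1 by 1.13, Pold3 by 1.07, Rpa3 by 1.04, Tyms by 1.01, Mcm2 by 1.00, Rfc4 by 0.96, Pold1 by 0.93, Pold2 by 0.89, Mcm7 by 0.79 and Rfc1 by 0.71. In the Vil1 mice Cdc6 was more positive in villi by 1.25, Orc6 by 0.79 and Pcna by 0.48, whereas Rpa1 differed by -0.50.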

How the results depend on the processing

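Over 264 member results and 3925 alternative values, 3627 kept direction and side of the threshold, 142 lost a call, 91 gained one and 65 reversed. The covariate for the Y-linked gene Ddx3y, leaving out mitochondrial genes and the spheroid line prefix were chosen after seeing the data. The crypt-to-villus counts, those at 5 and 10 µM A-485 and the lower counts of the second organoid set moved by less than 1.5 times under every alternative run. Testing without the low-count filter shifted the median of all genes by 0.107 in Rosa26 crypts and 0.199 in the Vil1 interaction. Where counts moved, the cause was not tested. The member counts under these alternatives stand without the share of all genes under the same setting, so they are not compared with a background.

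Without the filter the Rosa26 crypts had 4 lower members, the Rosa26 villi 1, the Vil1 villi and Vil1 interaction 0, the Vil1 crypts 0 higher, and the 4-OHT spheroid genotypes 1 lower. With the Y-linked covariate the Rosa26 crypts had 28 lower and the villi 1. With more groups in the fit the Vil1 crypts had 0 lower and 0 higher, the Vil1 villi 4 lower and 14 higher, and the first organoid set 1 higher. With DESeq2's Wald test the Vil1 interaction had 7 higher, the first organoid set 10 lower and flox/flox spheroids 5 lower. With only the 2 groups, the 4-OHT spheroid genotypes had 1 lower, and with the line prefix 0.

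With the replicate block, which pairs lines, animals or, in Rosa26 crypts, libraries whose deviations correlate, the Rosa26 crypts had 4 lower, the Rosa26 interaction 4 higher, the Vil1 interaction 0 lower and 11 higher, the first organoid set 12 lower and 1 higher, flox/flox spheroids 7 lower and their interaction 2 lower and 1 higher. Where the numbers do not pair the libraries, the block gave 0 higher in Vil1 crypts, 1 lower in Vil1 villi, 0 higher in the second organoid set against flox/+ and 0 against +/+, and 0 lower between 4-OHT spheroid genotypes. It changed no other count by over 1.5 times. In comparisons of 2 groups the block fit left out libraries without a partner in the other group, as heterozygous replicate 2 in Rosa26 crypts.

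Leaving out 1 library gave these ranges of lower members: 1 to 14 in Rosa26 crypts, 1 to 3 in Rosa26 villi, 1 to 3 in Vil1 villi, 0 to 1 in the Vil1 interaction, 0 to 36 in the first organoid set, 2 to 8 at 3 µM A-485, 2 to 12 in flox/flox spheroids and 1 to 7 between 4-OHT spheroid genotypes. For higher members they were 4 to 11 in Rosa26 villi, 4 to 18 in the Rosa26 interaction, 0 to 1 in Vil1 crypts, 3 to 15 in Vil1 villi, 1 to 13 in the Vil1 interaction, and 0 to 1 in the first organoid set, in both flox/flox comparisons of the second and between 4-OHT spheroid genotypes.

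Several values changed sign. In Rosa26 crypts the Y-linked covariate gave -0.27 for Orc1, -0.22 for Orc2 and -0.30 for Rpa3, and no filter 0.022 for Pcna. Rrm2 in Rosa26 villi was 0.010 with DESeq2's size factors, 0.013 with its Wald test, 0.029 unfiltered, 0.052 with more groups, 0.22 with the Y-linked covariate and 0.0068 without mitochondrial genes. The block gave -0.056 for Rrm2 in the Rosa26 interaction, 0.033 for Cdt1 in the Vil1 interaction, -0.000341 for Cdc45 at 3 µM and -0.12 for Rrm2 in flox/flox spheroids, where both DESeq2 settings gave -0.036 and the 2 groups alone -0.0020. Gins4 in the first organoid set was 0.0095 unfiltered and 0.0021 with more groups.

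Leaving out 1 library moved log2 changes across 0 within these ranges: in Rosa26 crypts Pcna -0.15 to 0.11 and Rpa3 -0.10 to 0.17; in Rosa26 villi Rrm2 -0.27 to 0.15; in the Rosa26 interaction Rfc3 -0.11 to 0.25 and Rrm2 -0.020 to 0.46. In Vil1 crypts Mcm2 ran from -0.0016 to 0.036, Mcm5 from -0.014 to 0.059 and Cdt1 from -0.064 to 0.12, in Vil1 villi Pola1 from -0.011 to 0.65, and in the Vil1 interaction Rrm2 from -0.070 to 0.61. In the first organoid set Gins4 ran from -0.082 to 0.074 and Rpa3 from -0.17 to 0.19, and in the second Rpa3 from -0.019 to 0.15 against flox/+ and from -0.018 to 0.15 against +/+. With A-485 at 3 µM Cdc45 ran from -0.32 to 0.26 and Pole2 from -0.13 to 0.47, and from 5 to 10 µM Cdc6 from -0.37 to 0.055, Cdc45 from -0.17 to 0.15 and Rfc3 from -0.26 to 0.0036. In flox/flox spheroids Rrm2 ran from -0.36 to 0.13, Fen1 from -0.27 to 0.40 and Rpa3 from -3.2e-05 to 0.31, and between spheroids and organoids Gins4 from -0.064 to 0.11. Low counts limit Gins3 with A-485 and Orc1 and Pole2 in villi.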

Other observations

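Regulators outside the gene set gave further values. In villi, Cdkn2a was higher by 6.51 on the log2 scale in homozygous Vil1 mice, and E2f1 by 1.59, by edgeR's quasi-likelihood test (adjusted p = 4.53e-06 and 0.00253). Kif23, a mitotic kinesin gene, was higher in homozygous villi of both Cre lines, by 1.85 in Rosa26 and 2.14 in Vil1 mice, while Cdkn1c was lower in both, at -2.45 and -3.03. Dbf4, the activating subunit of the kinase that fires origins, was higher in both sets of villi (0.83 and 1.21) and in flox/flox spheroids after 4-OHT (0.61).

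With A-485 at 10 µM, Dna2, a nuclease and helicase of Okazaki fragment maturation, had the largest change among the called genes of the other replication list (-3.49), followed in the downward direction by Ticrr (-2.69) and Timeless (-2.49). E2f2, an activating E2F, was lower by 4.73 and Mybl2, a regulator of mitotic genes, by 2.55 on the log2 scale.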
